A study of Mus musculus with 8 samples.

Results

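The integrated stress response genes around the transcription factor ATF4 were examined in serum-starved mouse fibroblasts that were restimulated with serum, with and without cordycepin. The set was fixed by gene name: Atf4, Atf5, Ddit3, Cebpb, Chac1, Trib3, Asns, Sesn2, Ddit4 and Ppp1r15a. On the array these 10 genes were represented by 11 of 55681 probes, with 2 probes for Atf4 and 1 for each of the others. All 11 were well above background on all 8 arrays and were among the 30861 probes tested.

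The cells were NIH3T3, an immortalised fibroblast line, which all spent 24 h in low-serum medium before treatment. In the cordycepin plus serum group (n = 3 arrays), cells received 20 µM cordycepin, an adenosine analogue dissolved in DMSO, for 90 min, and newborn bovine serum for 30 min. The labels place the serum in the last 30 of the 90 min, whereas the paper's figure legend can be read as placing it after them. The serum group (n = 3) received DMSO for 90 min and serum for 30 min, and the no serum group (n = 2) was starved cells to which no serum was added. Cordycepin was not given without serum on any array, so its effect was measured in serum-treated cells, and each group comes from the same cell line.

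The integrated stress response begins when kinases phosphorylate the translation initiation factor eIF2α. General translation then falls while the ATF4 mRNA, which carries short upstream reading frames, is translated more. ATF4 pairs with C/EBP and other bZIP proteins and activates genes for amino acid supply, for redox balance and for the feedback that removes the phosphate from eIF2α. Because much of the control of ATF4 itself is on translation, its mRNA, which is what an array measures, is not a measure of its protein. In bulk RNA, fewer cells making a transcript and less of it in each cell cannot be told apart.

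Values are normalised log2 signals, that is, the log2 of the processed signal less the log2 of that array's 75th percentile signal, and a level is comparable between arrays but not between probes. Differences were tested with limma, and a gene is said to have risen or fallen at an adjusted p under 0.05 (Benjamini-Hochberg over all 30861 probes). It is said to be called where the log2 fold change was also at least 1 in size. The 75th percentile of the signal lay between 350.5 and 802.2, between 51.1 and 57.1% of probes were well above background on an array, and arrays of a group correlated at 0.992 or more. The 8 arrays lay on 1 slide. All 8 fibroblast markers examined were tested, and none rose or fell in any comparison. Of the leukocyte markers, Cd68 was called higher with cordycepin (log2 fold change 3.04 ± 0.21, SE, limma adjusted p 5.18e-05), Cd3e did not pass, and Ptprc was too dim to be tested. The summed linear level of Cd68 and Cd3e was 7.53 to 9.35 on cordycepin plus serum arrays, 1.71 to 1.99 on serum arrays and 1.67 to 1.96 on no serum arrays, and its part in the results below was not tested.

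To see what cordycepin does to this pathway during the serum response, cordycepin plus serum was compared with serum alone. 5 of the 10 genes fell with cordycepin, and none rose. Chac1 and Cebpb were called lower, while Ddit4, Ddit3 and Sesn2 fell by less than the fold change required for a call. Over all probes tested, 2.87% were called lower, 7.63% were called higher and 7.36% fell. Among probes for RefSeq mRNAs, 2.45% were called lower and 7.50% fell. The median log2 fold change of the 10 genes was −0.50, beside 0.10 over all probes and 0.06 over RefSeq mRNA probes. All 3 cordycepin arrays lay below all 3 serum arrays for Cebpb, Chac1, Ddit3, Ddit4, Sesn2 and, on its brighter probe only, Atf4. Of all probes 13.4% had such a pattern.

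**Figure D1:**
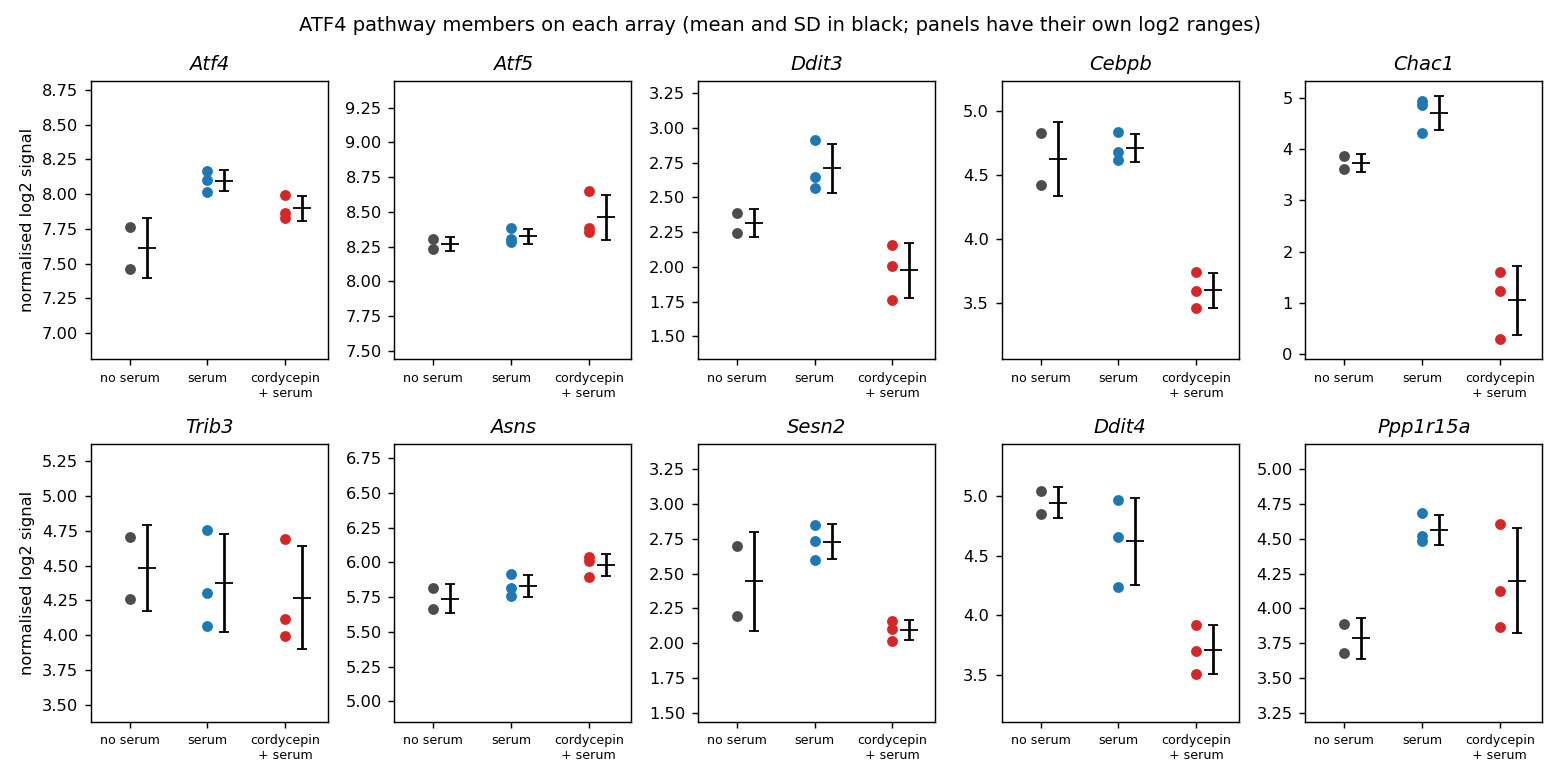
Normalised log2 signal (vertical axes, 0 is the 75th percentile of an array) of the 10 genes on each array, as coloured points for the no serum (2 arrays), serum (3) and cordycepin plus serum (3) groups, with the mean and SD in black. The cordycepin points lie below the serum points for Atf4 (brighter probe), Cebpb, Chac1, Ddit3, Ddit4 and Sesn2, an order that 13.4% of all probes had. The groups overlap for Trib3.

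The transcription factors of the set moved unequally. Atf4, the central activator of the pathway, is on chromosome 15 (build mm9), and its brighter probe (80087902 to 80087961) was at 7.995, 7.86 and 7.83 with cordycepin and serum, 8.10, 8.17 and 8.02 with serum, and 7.46 and 7.77 without serum. The cordycepin arrays were thus just below the serum arrays and above the arrays without serum, with no overlap. The difference from serum, −0.20 ± 0.12 (SE), did not pass (limma adjusted p 0.29), although it did after quantile normalisation (−0.40, limma adjusted p 0.0184). The second Atf4 probe, which starts at base 504 of the transcript rather than base 1655, gave −0.27 ± 0.17 (limma adjusted p 0.297). On it the cordycepin arrays, which reached 3.12, overlapped with the serum arrays, which began at 3.00. Atf5, a related activator whose mRNA is under similar translational control, ranged from 8.36 to 8.65 with cordycepin and from 8.29 to 8.38 with serum, with overlap between the groups (0.14 ± 0.11, limma adjusted p 0.439, and −0.06 after quantile normalisation).

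Ddit3 encodes CHOP, a bZIP factor induced through ATF4 that takes part in cell death under prolonged stress. Its probe, which carries no genome position in the array design, was at 2.00, 1.76 and 2.15 with cordycepin, 2.57, 2.65 and 2.91 with serum, and 2.39 and 2.24 without serum. The cordycepin arrays were the lowest of all 8. Ddit3 fell 1.66-fold with cordycepin (log2 fold change −0.73 ± 0.14, limma adjusted p 0.00828).

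Cebpb encodes C/EBPβ, a partner of ATF4. Its probe (chromosome 2, 167515828 to 167515887) was at 3.74, 3.46 and 3.59 with cordycepin, 4.68, 4.83 and 4.62 with serum, and 4.42 and 4.83 without serum. The cordycepin arrays lay at least 0.68 below all the other arrays. Cebpb fell 2.16-fold (−1.11 ± 0.14, limma adjusted p 0.000949). Centring on spike-in probes gave a similar fold change, −1.19, with a limma adjusted p of 0.277.

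Chac1 showed the greatest decrease of the set. It encodes an enzyme that degrades glutathione and is a target of ATF4. Its probe (chromosome 2, 119179990 to 119180049) was at 0.30, 1.23 and 1.60 with cordycepin, 4.94, 4.32 and 4.88 with serum, and 3.62 and 3.86 without serum. The arrays fell into 3 ranges without overlap, and the spread was widest among the cordycepin arrays. Chac1 fell 12.7-fold (−3.67 ± 0.32, limma adjusted p 0.00014), which ranked 3 among the 30861 log2 fold changes counted from the lowest. It was called in every alternative processing tried, with log2 fold changes from −3.95 to −3.29.

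Other well known targets of ATF4 did not follow Chac1. Asns, which encodes asparagine synthetase, was at 6.01, 5.89 and 6.04 with cordycepin, 5.81, 5.76 and 5.91 with serum, and 5.81 and 5.67 without serum (chromosome 6, 7625169 to 7625228). The cordycepin and serum arrays overlapped, and the difference of 0.15 ± 0.11 did not pass (limma adjusted p 0.353). Trib3 encodes a pseudokinase that restrains ATF4 and AKT. It was at 4.12, 3.99 and 4.69 with cordycepin, 4.30, 4.07 and 4.76 with serum, and 4.70 and 4.26 without serum (chromosome 2, 152163161 to 152163220). The ranges of the 3 groups overlapped, and the difference between cordycepin and serum was −0.11 ± 0.24 (limma adjusted p 0.795). That value changed sign when either cordycepin plus serum array 2 or serum array 3 was left out (0.03 and 0.08).

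Sesn2 and Ddit4 encode inhibitors of the growth kinase complex mTORC1, Sestrin 2 acting as a leucine sensor and REDD1 through the TSC complex. The Sesn2 probe (chromosome 4, 132048858 to 132048917) was at 2.10, 2.02 and 2.16 with cordycepin, 2.74, 2.60 and 2.85 with serum, and 2.70 and 2.19 without serum. The cordycepin arrays were close together and below all others, and Sesn2 fell 1.55-fold (−0.64 ± 0.15, limma adjusted p 0.0189). Without cordycepin plus serum array 1 or 2, or serum array 1 or 3, it no longer passed, with limma adjusted p-values of 0.0544, 0.0621, 0.0593 and 0.0693.

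The Ddit4 probe (chromosome 10, 59412486 to 59412545) was at 3.51, 3.70 and 3.92 with cordycepin, 4.97, 4.66 and 4.24 with serum, and 4.85 and 5.04 without serum. All cordycepin arrays were below the others, and the serum arrays were the more spread. Ddit4 fell 1.88-fold (−0.91 ± 0.20, limma adjusted p 0.0133). Leaving out cordycepin plus serum array 1 gave −0.81 and a limma adjusted p of 0.0527, and leaving out cordycepin plus serum array 3 or serum array 3 brought it past the fold change for a call (−1.02 and −1.10).

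Ppp1r15a encodes GADD34, the stress-induced subunit that brings protein phosphatase to eIF2α. Its probe (chromosome 7, 52778320 to 52778379) was at 3.86, 4.12 and 4.61 with cordycepin, 4.52, 4.49 and 4.69 with serum, and 3.68 and 3.89 without serum. Cordycepin array 3 lay within the range of the serum arrays, while array 1 lay within that of the arrays without serum. The difference from serum was −0.37 ± 0.19 (limma adjusted p 0.223), and without cordycepin plus serum array 3 it was −0.57 and passed (limma adjusted p 0.0382).

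When arrays were centred on spike-in probes instead of the 75th percentile, Chac1 was the only gene of the set that passed, although the log2 fold changes of Cebpb, Ddit4, Ddit3 and Sesn2 were similar (−1.19, −0.99, −0.81 and −0.71).

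Whether serum alone acts on these genes was examined by comparing serum with no serum. None of the 10 genes rose or fell by limma at an adjusted p under 0.05, and 4 of them were higher at an unadjusted p under 0.05, as were 4.12% of all probes. By adjusted p and fold change, 0.849% of all probes were called higher, and 0.782% of RefSeq mRNA probes were. The median of the set was 0.19, beside −0.02 over all probes. The 4 genes were Chac1 (0.97 ± 0.36), Ppp1r15a (0.78 ± 0.21), Atf4 (0.48 ± 0.13) and Ddit3 (0.39 ± 0.16), with limma adjusted p-values of 0.36, 0.142, 0.154 and 0.434. The second Atf4 probe gave 0.63 ± 0.19 (limma adjusted p 0.187). Ddit4 was at −0.32 ± 0.22, and the remaining genes lay between −0.11 and 0.28. Centring on spike-in probes moved the median of all probes in this comparison to −0.36 and turned the sign for Asns, Atf5, Cebpb and Sesn2.

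Cordycepin plus serum was then compared with no serum, which shares its arrays with both comparisons above. Chac1 (−2.70 ± 0.36), Ddit4 (−1.24 ± 0.22) and Cebpb (−1.03 ± 0.16) were called lower than in starved cells (limma adjusted p 0.00174, 0.00691 and 0.00363), by 6.48-, 2.35- and 2.04-fold. Of all probes 2.99% were called lower, and of RefSeq mRNA probes 1.90%. These 3 genes were thus below their level in starved cells that were not restimulated. In contrast, Ddit3 (−0.34 ± 0.16) and Sesn2 (−0.35 ± 0.17) did not pass (limma adjusted p 0.218 for both). Atf4 (0.28 ± 0.13), Ppp1r15a (0.42 ± 0.21), Asns (0.24 ± 0.12), Atf5 (0.19 ± 0.13) and Trib3 (−0.22 ± 0.27) did not pass either. The calls of Cebpb and Ddit4 rested on single arrays. When the second array without serum was left out, Cebpb was at −0.82 and Ddit4 at −1.14 with a limma adjusted p of 0.0675, and Chac1 alone was called. Without cordycepin plus serum array 2, Cebpb was at −0.96. After centring on spike-in probes Cebpb (−1.45) and Ddit4 (−1.66) did not pass (limma adjusted p 0.212 and 0.0973).

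**Figure D2:**
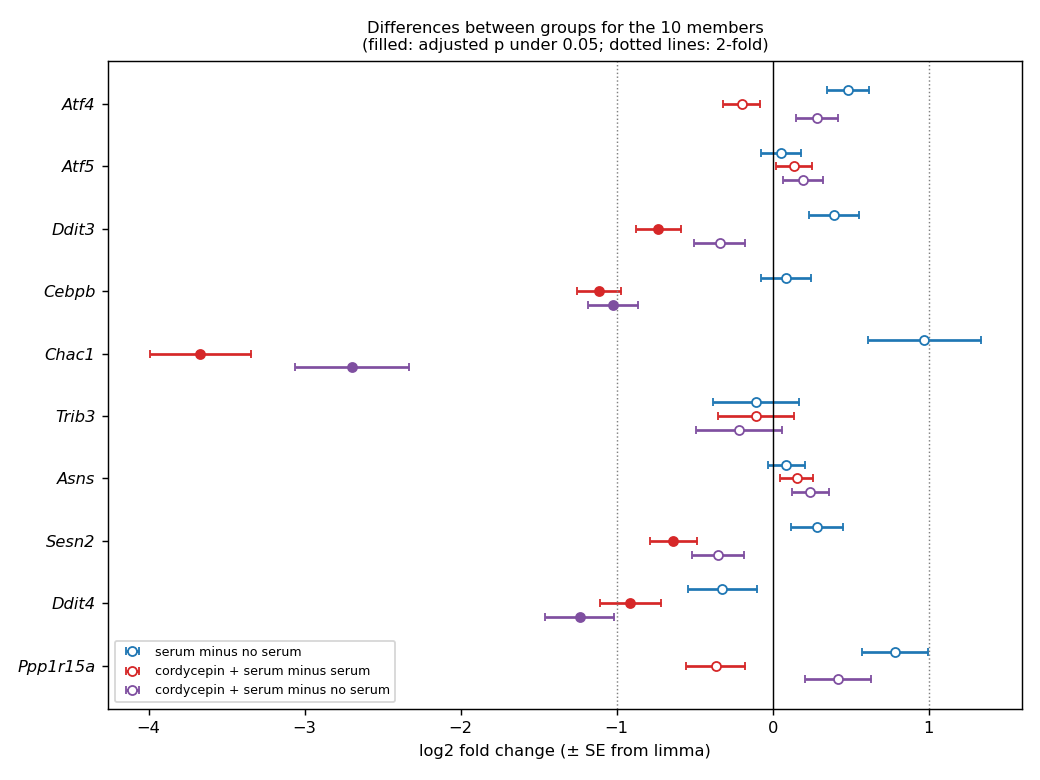
Log2 fold change ± SE from limma (horizontal axis) of the 10 genes in each comparison, with filled points where the adjusted p was under 0.05. The cordycepin effect (red) is filled for 5 genes, all to the left of 0, the serum effect (blue) for none, and the difference from no serum (purple) for Chac1, Ddit4 and Cebpb.

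The promoters of the set were read for the element at which ATF4 and C/EBP proteins bind together, here TGATGNAA on either strand, within 250 bases before to 50 bases after each annotated start in RefSeq (build GRCm38.p6). All 10 genes were matched, Atf5 with 2 windows. The letters were found for Chac1, Asns and Trib3, and in 3.97% of 32851 promoters of the table. These sequences are shown because the genes that carry the same element differed in the cordycepin comparison, Chac1 being called lower and Asns and Trib3 not passing. Capitals mark the element, and in Chac1 also a variant, TGACGNAA, held by 1.59% of promoters and found in no other gene of the set. The stretches are chr2:119350992-119351241 (plus strand) for Chac1, chr6:7693210-7693459 (minus strand) for Asns, and chr2:152344031-152344310 (minus strand) for Trib3, each beginning 250 bases before the start, with the Trib3 stretch running on for 30 bases beyond it.
Chac1: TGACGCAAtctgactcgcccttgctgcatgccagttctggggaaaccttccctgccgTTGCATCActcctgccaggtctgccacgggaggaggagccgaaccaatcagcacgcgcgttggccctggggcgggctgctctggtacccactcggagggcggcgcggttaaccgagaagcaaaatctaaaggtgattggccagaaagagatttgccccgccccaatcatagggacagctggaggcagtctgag
Asns: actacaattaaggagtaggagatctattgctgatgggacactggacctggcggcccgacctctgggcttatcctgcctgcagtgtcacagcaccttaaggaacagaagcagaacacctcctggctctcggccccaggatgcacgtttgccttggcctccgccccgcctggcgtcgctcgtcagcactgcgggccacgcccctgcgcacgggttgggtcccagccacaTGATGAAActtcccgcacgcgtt
Trib3: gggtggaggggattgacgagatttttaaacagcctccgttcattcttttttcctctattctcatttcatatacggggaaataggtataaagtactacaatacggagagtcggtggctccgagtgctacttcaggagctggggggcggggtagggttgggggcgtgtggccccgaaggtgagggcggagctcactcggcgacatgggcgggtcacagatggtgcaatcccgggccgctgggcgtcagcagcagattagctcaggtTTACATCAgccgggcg

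In Chac1 the element (TGATGCAA, on the minus strand) began at base −193 from the start site and the variant (TGACGCAA) at base −250. In Asns it was TGATGAAA at base −23, and in Trib3 it was TGATGTAA on the minus strand, 14 bases past the first transcribed base. The other motifs searched did not separate the genes that fell from those that did not pass. CCAAT was found in Atf4, Atf5, Chac1, Ddit3, Ddit4 and Sesn2 (37.4% of promoters), TATAAA in Cebpb, Ppp1r15a and Trib3 (13.6%), the cyclic AMP response element TGACGTCA in Ppp1r15a (1.79%) and the AP-1 element TGANTCA in Ddit3 (7.81%). TGACGTCA and TGACGNAA share their first letters but differ further on, so that by construction no stretch can match both. A match in these letters is a description of the sequence and not a binding site.

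The genes around the set were followed on 1 probe per gene, the brightest tested. Upstream, a list of 20 genes held the kinases, the constitutive phosphatase subunits, the subunits of eIF2 and eIF2B, and Impact, Gcn1l1, Dnajc3 and Nck1. All were tested, 2 (Ppp1r15b and Nck1) fell with cordycepin and none rose, with a median of 0.06. Over all probes the median was 0.10 and 7.36% fell. The kinases Eif2ak1 to Eif2ak4, which encode HRI, PKR, PERK and GCN2, lay within 0.07 of 0. Ppp1r15b, the constitutive counterpart of Ppp1r15a, was at −0.58, −0.35 and −0.31 with cordycepin, 0.70, 0.97 and 0.83 with serum, and −0.16 and −0.20 without serum. Serum arrays were high and both other groups low. Ppp1r15b was called lower with cordycepin (−1.25 ± 0.12, limma adjusted p 0.000235) and called higher with serum (1.01 ± 0.14, limma adjusted p 0.00987). Without the second array lacking serum the latter gave 1.00 and a limma adjusted p of 0.0859. Nck1, an adaptor that binds this phosphatase complex, fell by 0.69 on the log2 scale (limma adjusted p 0.00919). Probes of 2 genes disagreed, since dimmer probes of Eif2s1 and Eif2s2 rose with cordycepin (0.90 ± 0.16 and 0.84 ± 0.17, limma adjusted p 0.00548 and 0.00856) while the brighter were at 0.16 and −0.04.

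Few of the metabolic targets of ATF4 passed on their brightest probes. Of 14 genes of amino acid synthesis and one-carbon metabolism, none rose or fell with cordycepin or with serum, and the log2 fold changes with cordycepin lay between −0.20 (Mthfd2, a mitochondrial folate enzyme) and 0.40. None of 13 genes for aminoacyl-tRNA synthetases and the tRNA exporter Xpot passed either (−0.32 to 0.24). Of 12 amino acid transporters, Slc7a3, a carrier of cationic amino acids, rose with cordycepin (0.68 ± 0.17, limma adjusted p 0.0263), and 11 did not pass, among them Slc7a11, the cystine transporter (−0.27 ± 0.21), and Slc7a1 (−0.41 ± 0.14). The medians of these lists with cordycepin were 0.06, 0.07 and −0.06. Probes of Slc7a5 disagreed, the brighter being at −0.04 with cordycepin and the dimmer at −0.70 ± 0.21. Neither passed (limma adjusted p 0.9 and 0.0544). Slc7a3 no longer passed when cordycepin plus serum array 1 or 3 or serum array 1 or 2 was left out (limma adjusted p 0.0867, 0.085, 0.0732 and 0.0826).

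Of 20 further targets of ATF4 and CHOP, 5 fell with cordycepin, 1 rose and 14 did not pass, with a median of −0.13. Over all probes 7.36% fell and the median was 0.10. Cebpg and Jdp2 are counted here and again among the bZIP factors below. Fgf21, a secreted metabolic hormone, was called lower (−1.22 ± 0.28, limma adjusted p 0.0166). It was dim, at −4.37, −4.94 and −5.16 with cordycepin and at −3.33, −4.15 and −3.32 with serum, and normexp background correction brought the difference to −0.26 (limma adjusted p 0.33). It was also not called when cordycepin plus serum array 2 or 3 or serum array 1 or 3 was left out (−1.16, −1.06, −1.09 and −1.08, limma adjusted p 0.0567 to 0.0583). Bbc3, the p53 and CHOP target PUMA, fell by 0.90 on the log2 scale (limma adjusted p 0.014), Herpud1, a component of endoplasmic reticulum degradation, by 0.76 (limma adjusted p 0.00972), Cebpg by 0.42 (limma adjusted p 0.0211) and Vegfa by 0.40 (limma adjusted p 0.0453). Vegfa and Cebpg lost this with several of the arrays left out, as did Bbc3 without cordycepin plus serum array 1 or 2 (limma adjusted p 0.0548 and 0.0503). A dimmer probe of Vegfa was at −0.07 with cordycepin and did not pass (limma adjusted p 0.739).

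Gdf15, a stress-induced cytokine, went the other way. Its probe (chromosome 8, 73153293 to 73153352) was at −0.81, −1.28 and −1.43 with cordycepin and failed the test of being well above background on all serum and no serum arrays, with values from −7.83 to −5.91 there. The fitted log2 fold changes, which use those dim values, were 5.53 ± 0.50 against serum and 5.70 ± 0.56 against no serum (limma adjusted p 0.000156 and 0.000371). Gdf15 was at least 19.0-fold higher with cordycepin than with serum, and at least 22.2-fold higher than without serum. These bounds set the mean of the cordycepin arrays against the lowest signal measured above background, and the probe was admitted to the test only through the cordycepin arrays. Normexp background correction, which raises dim signals, gave smaller log2 fold changes of 2.29 and 2.52. With serum, the probe of Pmaip1, which encodes the apoptosis inducer NOXA, was called higher (1.51 ± 0.21, limma adjusted p 0.0118). Without the first array lacking serum this was 1.26 with a limma adjusted p of 0.059, and normexp correction gave 0.68 with a limma adjusted p of 0.115.

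The parallel branches of the unfolded protein response, run by ATF6 and XBP1, were near 0. Of 19 genes with cordycepin, 17 did not pass, Syvn1, an endoplasmic reticulum ubiquitin ligase, fell by 0.45 on the log2 scale (limma adjusted p 0.0304), and Sdf2l1, a chaperone cofactor, rose by 0.54 ± 0.16 (limma adjusted p 0.0499). Syvn1 lost this with some arrays left out. Sdf2l1 lost it when any cordycepin plus serum array, or serum array 2 or 3, was left out (limma adjusted p 0.0644 to 0.127). Hspa5, the chaperone BiP, was at 0.08 ± 0.11, and Xbp1 itself at −0.37 ± 0.14 (limma adjusted p 0.651 and 0.0984). A dimmer probe of Dnajb11, which encodes another chaperone cofactor, failed the background test on all serum and no serum arrays. It was in the test only through the cordycepin arrays, where it was at least 10.69-fold higher than with serum. The brighter Dnajb11 probe was at 0.25 ± 0.14 and did not pass.

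Several bZIP factors, from a list drawn up as possible partners of ATF4, CHOP or C/EBPβ, also fell with cordycepin. Whether each of them pairs with these proteins was not tested. Of 14 listed genes 11 were tested, Cebpa, Cebpe and Batf3 being too dim. Among the 11, 6 fell, 5 were called lower and none rose, and the median was −0.42. Over all probes 7.36% fell and 2.87% were called lower with cordycepin, the median was 0.10, and 0.849% were called higher with serum. Atf3 (−1.69 ± 0.24), Fos (−1.62 ± 0.26) and Maff (−1.48 ± 0.16) had the greatest decreases (limma adjusted p 0.00163, 0.0028 and 0.000357), and Junb and Jun were also called. The same 5 genes were called higher with serum, led by Fos (4.86 ± 0.29), Atf3 (4.70 ± 0.27) and Junb (2.64 ± 0.18), with limma adjusted p-values of 0.000209, 0.000173 and 0.000416. Atf3, itself a target of ATF4, was at 1.61, 1.31 and 1.71 with cordycepin, 2.93, 3.11 and 3.64 with serum, and −1.13 and −1.81 without serum, so that with cordycepin it lay between the other groups, while Chac1 and Cebpb lay below both. Nfe2l2, the antioxidant factor NRF2, was at −0.40 ± 0.15 with cordycepin (limma adjusted p 0.112). Of the genes outside the set whose brightest probe is given here with a rise or fall by cordycepin, Atf3, Fos, Gdf15 and Cd68 still passed after centring on spike-in probes, and the others did not. Gdf15 was again in the test only through the cordycepin arrays. With that centring, the serum effects of Jun (1.26), Maff (1.33), Ppp1r15b (0.67) and Pmaip1 (1.16) no longer passed (limma adjusted p 0.854 for each).

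**Figure D3:**
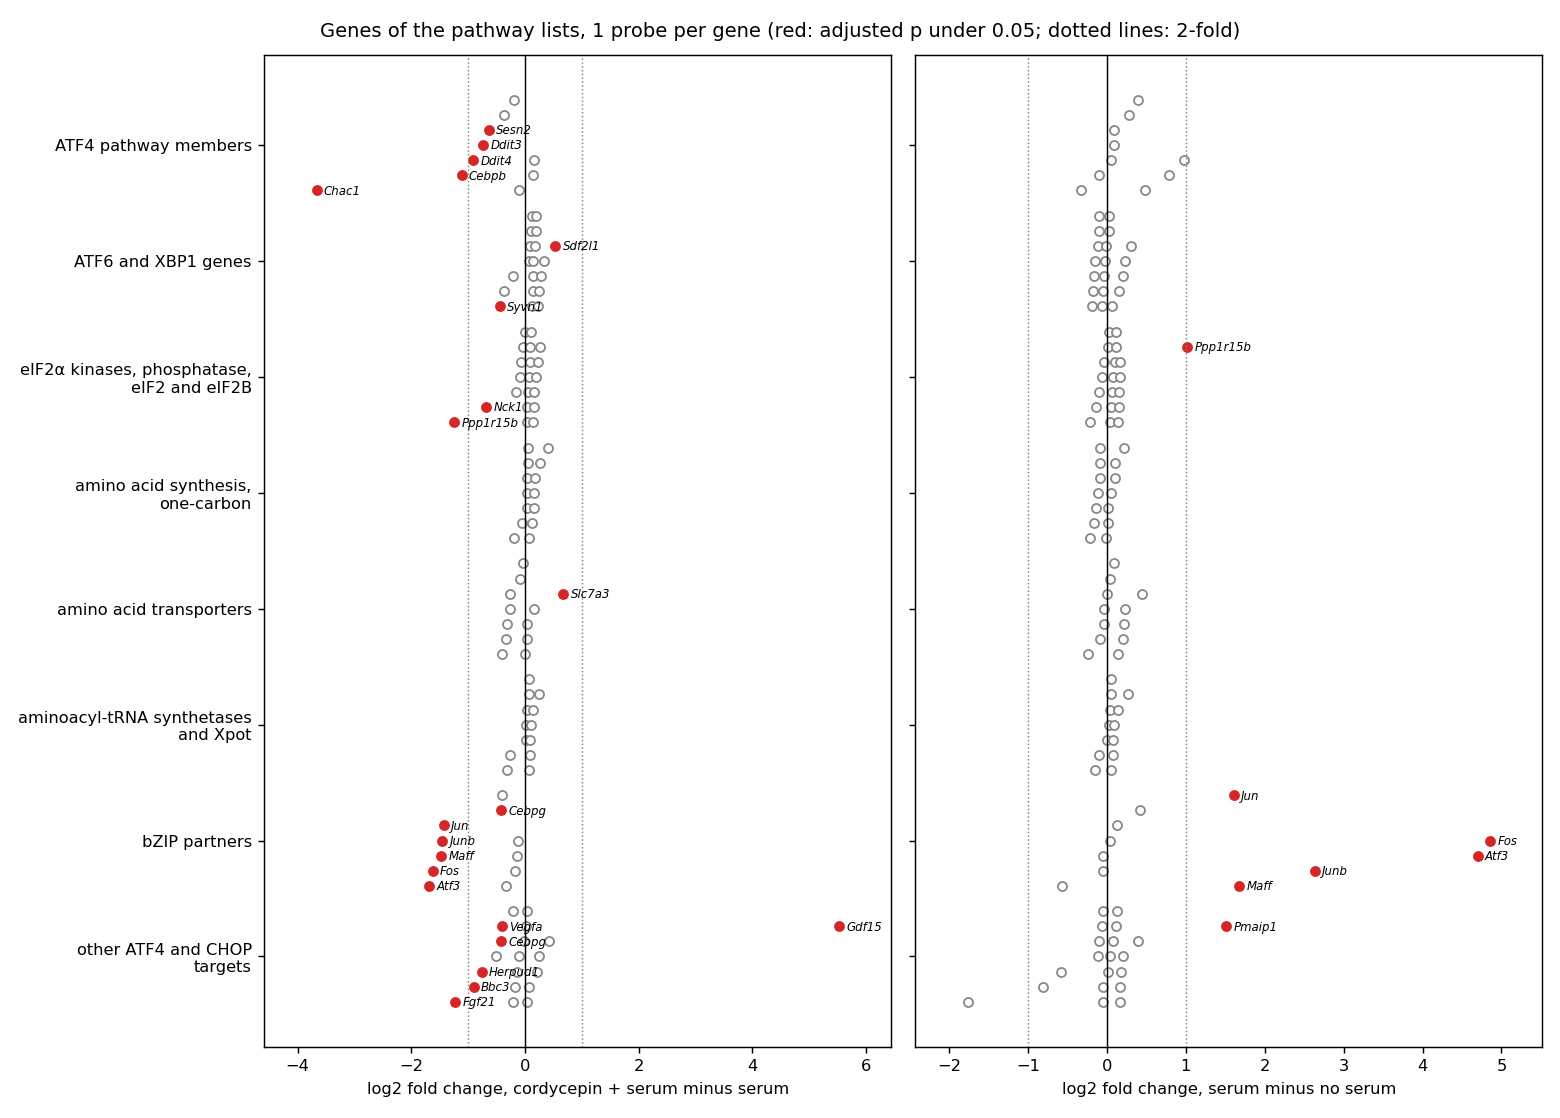
Log2 fold change of each tested gene of the pathway lists (1 probe per gene) for cordycepin plus serum minus serum (left) and serum minus no serum (right), with red points and names where the adjusted p was under 0.05. Points are spread vertically for legibility, the metabolic lists stay below 1 in size in both panels, and the bZIP partners lie left of 0 with cordycepin.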

How the data were processed

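RNA of NIH3T3 cells was labelled with Cy3 for 1-colour Agilent mouse arrays. The deposited files hold the scanner output as intensity per spot; per the file headers, the authors extracted it with Feature Extraction 10.7.3.1, and probe positions are those of build mm9. Groups came from the labels.

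Processed signals were put on the log2 scale and centred on the 75th percentile of the 59305 non-control spots of the array. A general change in RNA would therefore be missed. Spots with an outlier flag and controls were dropped before spots of the same probe were averaged. To be tested (two-sided, limma 3.58.1, R 4.3.3), a probe had to be well above background throughout at least 1 group. Each fit held all 8 arrays and a mean for each group. A gene was represented by its tested probe with the highest mean. The members and lists were chosen with earlier results of these data known, and up to 3 called genes per list and comparison were named by size; further list genes that passed, and those given as examples, were chosen after their values were seen. The submitters call the triplicates independent, and for the no serum pair nothing says so. The spread in the fit is pooled over all 8 arrays. If that pair is technical, its spread enters the p-values of every comparison, and comparisons with no serum lack independent replicates of that group. The calculation was tested on simulated data. Alternatives covered background correction, scaling, filters, call rules, probes, blocks, samples in the fit and leaving out arrays. Promoters came from RefSeq (GRCm38.p6), which was not mixed with mm9 positions.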

Additional observations from a re-analysis of the deposited data

How the results depend on the processing

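Over the alternatives, no member was called higher in any comparison, and none was called with serum. The number called lower with cordycepin, 2, was 1 after centring on spike-in probes, 5 with no minimum fold change, and 2 to 3 with each array left out. Against no serum it was 3, with 1 after spike-in centring and 1 to 3 with each array left out. Signs turned for values that had not passed. After quantile normalisation Atf5 was at −0.059 with cordycepin, −0.039 with serum and −0.10 against no serum. After spike-in centring the serum effect was −0.26 for Asns, −0.29 for Atf5, −0.26 for Cebpb and −0.063 for Sesn2, and the difference from no serum was −0.18 for Asns, −0.14 for Atf4, −0.23 for Atf5 and −0.0058 for Ppp1r15a. With each array left out, Trib3 ranged from −0.32 to 0.083 with cordycepin, −0.33 to 0.11 with serum and −0.44 to 0.0053 against no serum, and Cebpb from −0.12 to 0.29 with serum. The causes were not tested. With all probes admitted, Sesn2 did not pass with cordycepin (limma adjusted p 0.0698).

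Of all probes, 886 were called lower and 2356 higher with cordycepin. Normexp correction gave 399 and 929, spike-in centring 383 and 1482, and no minimum fold change 2271 and 3704, while a filter on all 8 arrays gave 1117 higher. Higher calls were 72.7% of the total, and 60.4% after quantile normalisation. With serum 262 were called higher, and normexp gave 169, spike-in centring 46, no filter 133 and leaving out the second no serum array 122. Against no serum 923 were called lower, and normexp gave 337, spike-in centring 563 and no minimum fold change 1837.

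Arrays with the same replicate number did not deviate together (correlations of deviations from −0.17 to 0.23), so the numbers were not taken as pairs. A fit with the replicate number as a block called 2 members lower with cordycepin, 0 with serum and 3 against no serum, and 885 of all probes lower with cordycepin. With the block the serum effect of Ppp1r15b was 0.99, below the fold for a call, and Syvn1, Sdf2l1, Cebpg and Vegfa no longer passed with cordycepin.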
